A study of Mus musculus with 3 samples.

Results

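Striatal projection neurons, also called medium spiny neurons, are the GABAergic output cells of the striatum. Dopamine acts on them through D1 receptors in the direct pathway and D2 receptors in the indirect pathway, and both receptor types converge on cyclic AMP and protein kinase A. DARPP-32 (Ppp1r1b), PDE10A, RGS9 and STEP (Ptpn5) shape that signal, the adenosine receptor gene Adora2a encodes an opponent of D2 receptors in the indirect pathway, and Foxp1, Meis2, Rarb and Isl1 are transcription factors of the lineage. Several of these genes are also expressed outside the striatum, Foxp1 and Ptpn5 in cortical projection neurons and Isl1 in cholinergic neurons among others.

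The 9 genes Ppp1r1b, Pde10a, Rgs9, Ptpn5, Adora2a, Foxp1, Meis2, Rarb and Isl1 were followed among 32531 gene symbols in RNA immunopurified with tagged ribosomes from mouse prefrontal cortex. They are known genes of these neurons, and they were chosen by their levels in these same libraries, in which striatal markers had been seen to be lowest in replicate 1 and highest in replicate 3. The differences between libraries given for the 9 genes are therefore descriptions without a test. All 9 were in the tables and had enough reads to enter the fit across all genes.

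The mice were untreated and of the Slc17a6-TRAP line JX883, which makes EGFP-tagged ribosomal protein Rpl10a in cells chosen by the driver gene Slc17a6, the gene of the vesicular glutamate transporter VGLUT2. There was 1 group of 3 immunopurified libraries, each from 3 pooled mice per the labels, and no input or untagged sample was analysed here. A level is thus a share of the RNA recovered on the beads, and RNA carried along without a tagged ribosome cannot be told apart from RNA on tagged ribosomes. Nor can fewer cells of a type and less RNA per cell. Nothing in the labels says whether the libraries were prepared together.

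Replicate 1 held 12592174 counts on named genes, replicate 2 held 8964137 and replicate 3 held 12648577. Levels are given as CPM, counts per 1000000 of that total, and as TPM, which also divides by exon length, where genes are compared with each other. Markers listed for cortical glutamatergic neurons were at 1 CPM or more in every library for 10 of 10 genes, with summed levels of 4492 to 4753 CPM. The same held for 12 of 12 GABAergic interneuron, 10 of 10 astrocyte and 6 of 6 oligodendrocyte precursor markers, but for 2 of 6 endothelial markers. The count thus does not single out the tagged cells. In edgeR, 36 of 14774 genes varied between the libraries beyond genes of like abundance at an adjusted p of 0.05, which is 0.244% of genes tested (0.209% of the 10527 genes averaging at least 5 CPM).

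Promoter sequence was examined because 4 of the 9 genes encode transcription factors. RefSeq windows (GRCm38.p6) were at hand for 7 of the 9 genes, with 11 starts in all, and the 250 bases before each start were searched on both strands. The retinoic acid response element of the DR5 type, a direct repeat with a spacer of 5 bases that RAR and RXR pairs bind, was found in 1 of the 11 windows, that of Rarb, 37 to 53 bases before the start. It was present in 0.0883% of 32851 windows of the same length. This is the element through which Rarb is known to be induced by retinoic acid. The MEIS motif TGACAG was found before 1 start of Foxp1, against 15.9% of all windows, and the LIM-homeodomain motif CTAATG before that of Rgs9, against 6.36%. The forkhead motif TGTTTAC (3.17% of all windows) and the CREB motif TGACGTCA (1.55%) matched 0 of the 11, while TGACGT, which is contained in that CREB motif (6.47% of all windows), matched 2, of Foxp1 and Isl1. The sites matched by the DR5 element, TGACAG and CTAATG are shown with flanking bases, the motif in capitals, because they name which of these factors' letters stand in which gene. They are a description, and binding at them was not measured here.
Rarb, chr14:16575507-16575535, minus strand: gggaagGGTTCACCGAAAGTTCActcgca
Foxp1, chr6:99266649-99266678, minus strand, where TGACAG lies on the other strand: gccagtgtctctCTGTCAgaggaggatagg
Rgs9, chr11:109298216-109298245, minus strand: gcgcagtgcatgCTAATGagcgcgcggcgc

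Pde10a and Ptpn5 are the genes of the set that were lowest in replicate 1 and highest in replicate 3 and for which windows were at hand. A window of each is shown to set beside the sites above. Neither held any of the motifs searched, which says only that these letters are not in these windows.
Pde10a, chr17:8849735-8849984, plus strand: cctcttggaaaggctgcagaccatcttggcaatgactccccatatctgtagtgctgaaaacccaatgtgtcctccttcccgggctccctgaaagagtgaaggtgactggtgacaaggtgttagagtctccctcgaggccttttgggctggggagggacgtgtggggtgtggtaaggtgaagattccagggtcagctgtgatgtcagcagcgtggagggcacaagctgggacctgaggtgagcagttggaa
Ptpn5, chr7:47133685-47133934, minus strand: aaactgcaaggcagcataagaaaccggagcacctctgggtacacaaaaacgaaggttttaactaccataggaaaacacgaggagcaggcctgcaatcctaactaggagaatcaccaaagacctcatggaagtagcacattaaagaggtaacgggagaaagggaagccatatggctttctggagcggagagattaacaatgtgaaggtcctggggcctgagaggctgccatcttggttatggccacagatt

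Ppp1r1b encodes DARPP-32, which inhibits protein phosphatase 1 when protein kinase A phosphorylates it (ENSMUSG00000061718.12, mm10 chromosome 11, 98348404 to 98357796). It stood at 50.1, 60.9 and 79.3 CPM in replicates 1, 2 and 3, a mean of 63.4 ± 14.8 CPM (SD, n = 3). Replicate 3 was highest, 1.58-fold above replicate 1, and the counting intervals of the 3 libraries did not overlap. Of its exonic bases, 15.7% lie under the gene 1700003D09Rik on the other strand, which was at 0, 0 and 1.34 CPM.

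Pde10a encodes the phosphodiesterase that breaks down cyclic AMP and cyclic GMP in spiny neurons (ENSMUSG00000023868.17, chromosome 17, 8525372 to 8986648). Its levels were 123, 186 and 204 CPM, with a mean of 171 ± 42.7 CPM. Replicate 1 stood apart below the other libraries, and replicate 3 was 1.66-fold above it. Ptpn5 encodes STEP, a tyrosine phosphatase that acts on Fyn and on glutamate receptor subunits (ENSMUSG00000030854.17, chromosome 7, 47077795 to 47133684). It was at 116, 142 and 149.9 CPM, a mean of 136 ± 17.7 CPM and a span of 1.29-fold.

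Rgs9 encodes a regulator of G protein signalling that shortens signals of D2 and opioid receptors (ENSMUSG00000020599.13, chromosome 11, 109225355 to 109298129). It had 34.0, 22.4 and 41.8 CPM, a mean of 32.7 ± 9.76 CPM. Here replicate 2 and not replicate 1 was lowest, and replicate 3 was again highest.

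Adora2a encodes the adenosine receptor that is a marker of indirect pathway neurons (ENSMUSG00000020178.6, chromosome 10, 75316877 to 75334784). It rested on 47, 34 and 157 counts, equal to 3.73, 3.79 and 12.4 CPM, with 95% exact Poisson intervals of 2.74 to 4.96, 2.63 to 5.30 and 10.5 to 14.5 CPM. These intervals cover counting error only. Replicates 1 and 2 were alike and replicate 3 alone was high, 3.33-fold above replicate 1. With a coefficient of variation of 75.1%, Adora2a was the most variable of the 9 genes, and its mean of 6.65 ± 4.99 CPM describes none of the libraries.

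Foxp1, a forkhead factor needed for spiny neuron differentiation, was the most abundant transcription factor of the set (ENSMUSG00000030067.17, chromosome 6, 98925338 to 99522721). Its 206, 235 and 218 CPM gave a mean of 219.6 ± 15.0 CPM, with a span of only 1.14-fold and replicate 2 highest. Meis2, a TALE homeodomain factor (ENSMUSG00000027210.20, chromosome 2, 115863064 to 116065839), was similarly even at 126, 131 and 116 CPM, a mean of 124 ± 7.46 CPM, and was lowest in replicate 3. Their coefficients of variation, 6.81% and 5.99%, were the smallest of the 9.

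Rarb encodes the retinoic acid receptor beta of the striatum (ENSMUSG00000017491.9, chromosome 14, 16430839 to 16819156). It was at 8.89, 21.9 and 13.4 CPM, a mean of 14.7 ± 6.58 CPM, with replicate 2 the highest and 2.46-fold above replicate 1. Of its exonic bases, 38.4% are shared with other annotated genes, Top2b on the other strand and Gm48162. Since the use of strand in counting is not given, the level of Rarb is uncertain; Top2b was highest in replicate 1, at 67.3, 51.5 and 42.8 CPM.

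Isl1, a LIM-homeodomain factor that promotes direct pathway identity (ENSMUSG00000042258.13, chromosome 13, 116298281 to 116309689), went the other way. It had 14.3, 8.37 and 6.80 CPM from 180, 75 and 86 counts, a mean of 9.82 ± 3.95 CPM. Replicate 1 was highest, 2.10-fold above replicate 3, and its counting interval of 12.3 to 16.5 CPM lay above those of replicates 2 and 3 (6.58 to 10.5 and 5.44 to 8.40 CPM).

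**Figure D1:**
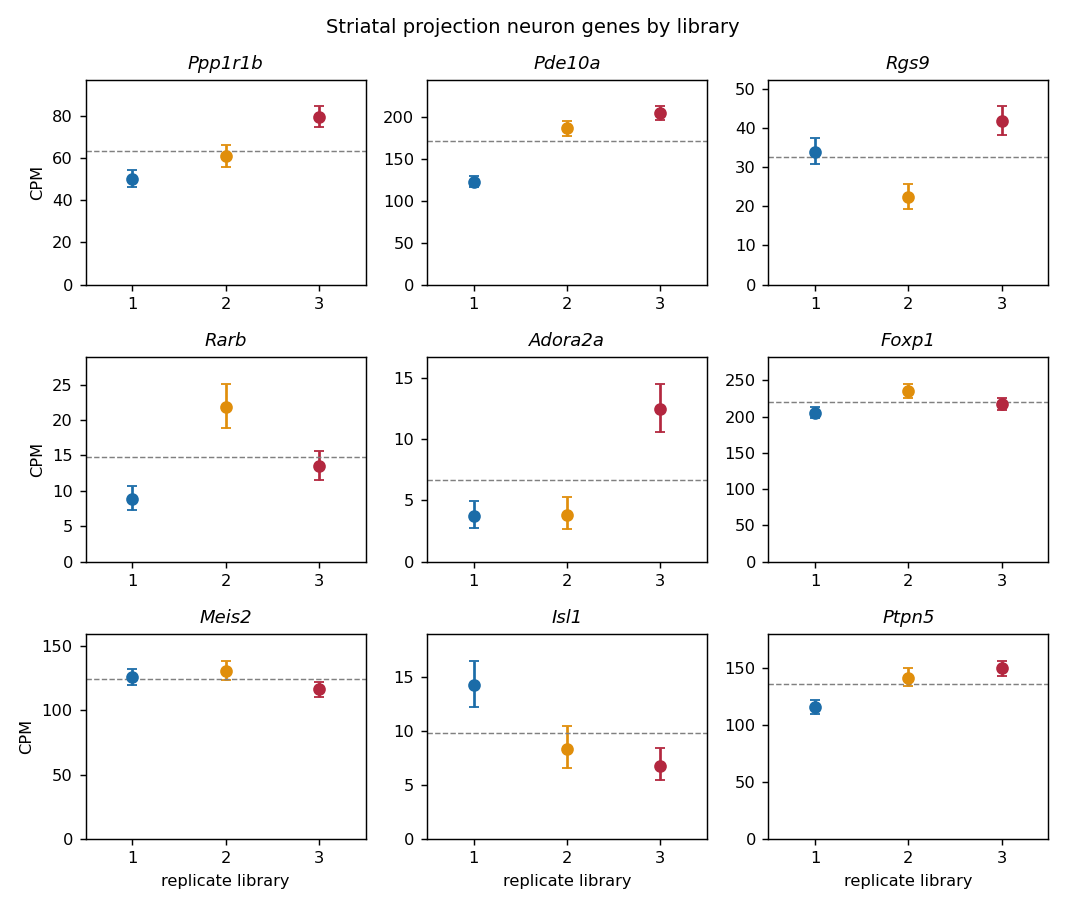
Level in CPM (vertical axes, from 0) of each of the 9 genes in replicate libraries 1, 2 and 3 (horizontal axes), with 95% exact Poisson intervals for counting error as bars and the mean of the 3 libraries as a dashed line. Ppp1r1b, Pde10a, Ptpn5 and Adora2a are lowest in replicate 1 and highest in replicate 3, Rgs9 is lowest in replicate 2, Foxp1, Meis2 and Rarb are highest in replicate 2, and Isl1 is highest in replicate 1.

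The pattern for which the genes were listed was thus held by 4 of 9, namely Ppp1r1b, Pde10a, Ptpn5 and Adora2a, where 15.2% of all genes tested and 15.3% of those averaging at least 5 CPM were lowest in replicate 1 and highest in replicate 3. Because the list was drawn up with that pattern in view, the count supports nothing. The levels of Adora2a in replicates 1 and 2 differed by less than counting error. Replicate 3 was at least 1.5 times replicate 1 for 4 of 9 genes (Ppp1r1b, Pde10a, Rarb and Adora2a), against 15.3% of all genes tested and 7.17% of those averaging at least 5 CPM. Replicate 1 was at least 1.5 times replicate 3 for Isl1 alone, against 15.2% of all genes and 7.23% of those averaging at least 5 CPM. The highest library was at least 1.5 times the lowest for 6 of 9 genes, against 46.8% and 29.5%. Replicate 1 was highest for 1 of 9 (34.1% of all genes and 34.7% of those averaging at least 5 CPM), replicate 2 for 3 (32.8% and 33.3%) and replicate 3 for 5 (33.1% and 32.1%). The replicates have no order in the design, so these counts describe which library was high and not a course.

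The median of replicate 3 minus replicate 1 over the 9 genes was 0.37 on the log2(CPM + 0.5) scale, beside -0.01 over all genes tested. The median span between the highest and the lowest library was 0.73 log2 units, beside 0.51 over all genes and 0.38 over genes averaging at least 5 CPM. It was 0.28 without replicate 1 and 0.29 without replicate 3. In edgeR's goodness of fit, 0 of 9 genes passed an adjusted p of 0.05 over all genes and 0 of 9 passed in the limma variance test. At an unadjusted p of 0.05 in edgeR there were 3 (Pde10a, Rarb and Adora2a), where 7.22% of all genes and 4.7% of those averaging at least 5 CPM had one. The rule that chose the genes used the same differences, so nothing is read from these counts.

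Compared per length, the order from high to low was Ptpn5 at 118 ± 15.7 TPM, Ppp1r1b at 109 ± 25.5, Foxp1 at 80.3 ± 5.69, Pde10a at 66.9 ± 16.9, Meis2 at 51.9 ± 3.12, Rgs9 at 25.8 ± 7.67, Rarb at 14.1 ± 6.32, Isl1 at 12.5 ± 4.97 and Adora2a at 10.9 ± 8.22 (SD, n = 3). Of the 8 pairs of neighbours in that order, 7 had overlapping ranges over the libraries. The exception was Meis2 over Rgs9, a 2.02-fold step in mean TPM that was present in 3 of 3 libraries. The genes therefore fell into a higher set of 5 and a lower set of 4, within which neighbours overlapped. Within the lower set the libraries disagreed on the order. Isl1 was highest of Rarb, Isl1 and Adora2a in replicate 1, Rarb in replicate 2 and Adora2a in replicate 3. With the longest annotated transcript as the length, Pde10a and Meis2 changed places.

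**Figure D2:**
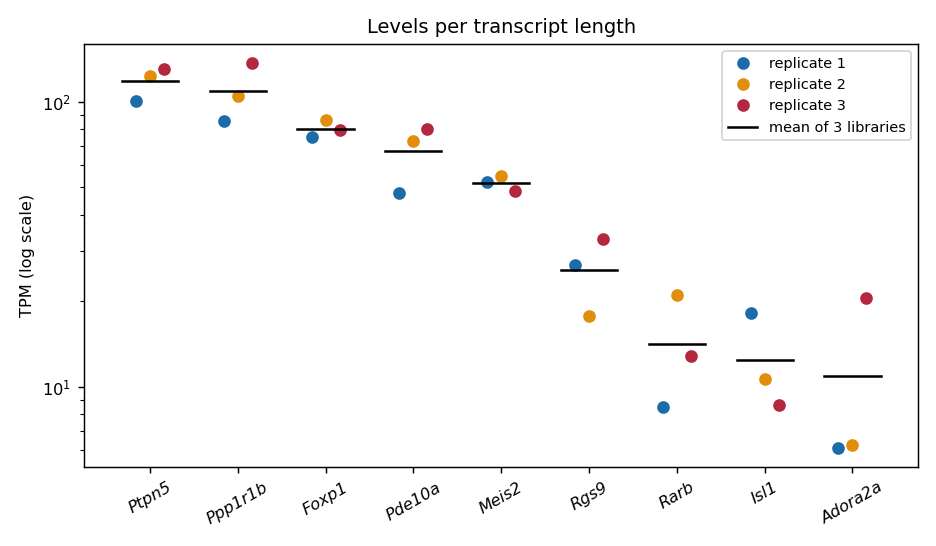
Level in TPM (vertical axis, log scale) of the 9 genes ordered by their mean, with 1 point per library and a line at the mean of the 3 libraries. The 5 genes from Ptpn5 to Meis2 lie above the 4 from Rgs9 to Adora2a in every library, and the points of neighbouring genes overlap everywhere else.

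Each gene was then set beside its close relatives, per length and within the same libraries. Foxp1 exceeded Foxp2 (12.6 ± 2.05 TPM) by 6.36-fold and Foxp4 (34.3 ± 4.995 TPM) by 2.34-fold. Meis2 exceeded Meis1 (4.39 ± 2.47 TPM) by 11.8-fold and Meis3 (26.9 ± 1.71 TPM) by 1.93-fold. Isl1 exceeded Lhx8, a LIM-homeodomain factor of striatal and basal forebrain cholinergic neurons, in 3 of 3 libraries, by 2.39-fold on average, while its paralogue Isl2 stood at 1.995 TPM in replicate 1, with no count in the other libraries. Each of these relations held in 3 of 3 libraries without overlap of the ranges.

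The retinoic acid and adenosine receptors had other leading members. Rara (49.95 ± 5.31 TPM) exceeded Rarb by 3.55-fold in 3 of 3 libraries, whereas Rarg stood at 2.24, 2.11 and 0.187 TPM. Rxrg, the striatal partner receptor, was at 6.58, 13.9 and 14.0 TPM, in a range that overlapped that of Rarb. Adora1 exceeded Adora2a by 12.9-fold in mean TPM and was lowest in replicate 3, the library where Adora2a was highest (154, 142 and 128 TPM). Drd2, which shares the indirect pathway with Adora2a, stood at 31.4, 42.1 and 35.2 TPM, so the high value of Adora2a in replicate 3 had no counterpart of that size in Drd2. Gpr6, an orphan receptor of the same cells, was highest in replicate 3 as well, at 8.69, 3.78 and 13.6 TPM from few counts.

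Among the enzymes, Ptpn5 exceeded its relative Ptprr (16.9 ± 3.44 TPM) by 6.99-fold, and Ptpn7 was under 1 TPM in every library. Rgs9 stood 8.44-fold below Rgs7 (217 ± 24.6 TPM) and 4.38-fold above Rgs6 (5.88 ± 1.14 TPM). Pde10a was at the level of Pde1b (74.1 ± 10.6 TPM), with overlapping ranges, 7.24-fold below Pde1a (484 ± 82.2 TPM) and 2.38-fold above Pde7b (28.1 ± 8.48 TPM). Ppp1r1b lay 2.74-fold below Arpp19 (299 ± 8.04 TPM). Over merged exons it overlapped in range with Ppp1r1a (80.9 ± 26.2 TPM) and with Arpp21 (97.7 ± 16.5 TPM), another phosphoprotein gene of spiny neurons. With the longest annotated transcript as the length, mean levels were 120 TPM for Ppp1r1b, 61.1 TPM for Ppp1r1a and 242 TPM for Arpp21. How Ppp1r1b stands to Ppp1r1a and Arpp21 thus depends on the length used. No p-value is given for these levels, since 3 libraries cannot take an exact two-sided test past 0.05.

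**Figure D3:**
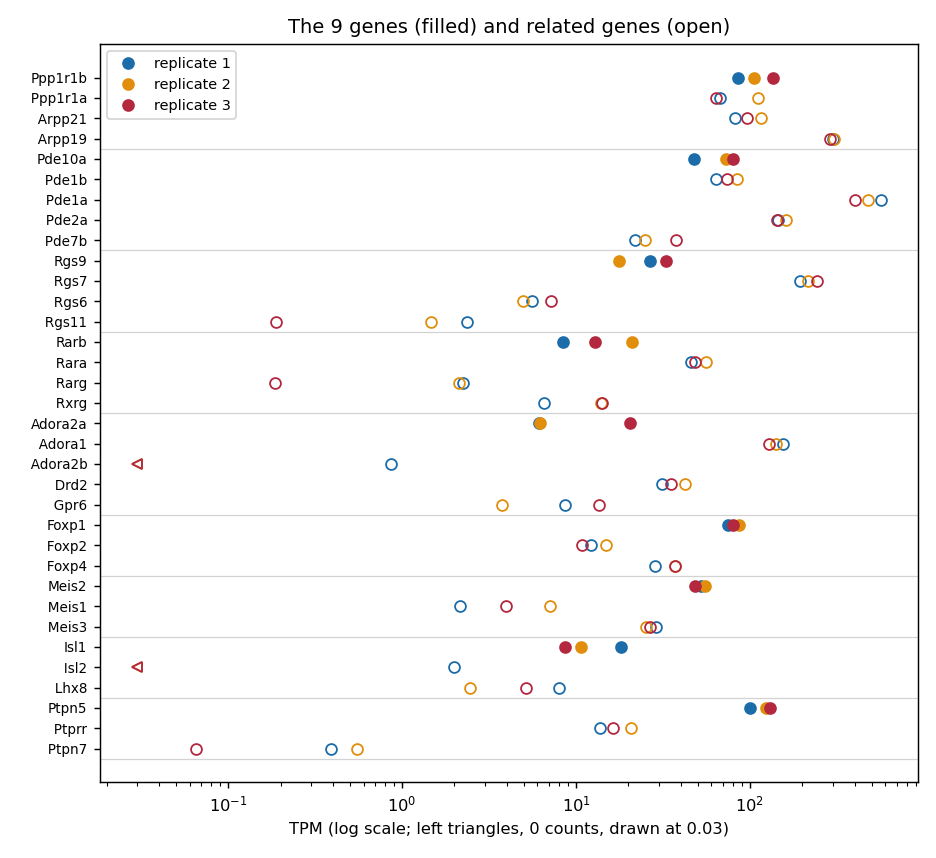
Level in TPM (horizontal axis, log scale) of the 9 genes (filled points) and of related genes below each (open points), 1 point per library, coloured by replicate; triangles at the left mark libraries with 0 counts, where those of replicates 2 and 3 coincide. Foxp1, Meis2, Isl1 and Ptpn5 lie right of the relatives under them, while Rgs7, Rara, Adora1 and Pde1a lie right of Rgs9, Rarb, Adora2a and Pde10a.

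Other striatal genes, 41 on 4 lists of which 40 entered the fit, were described beside the 9. In edgeR 0 of 40 varied at an adjusted p of 0.05, against 0.244% of all genes tested. An unadjusted p under 0.05 in edgeR was seen for 5 (Penk, Gng7, Rasd2, Dlx1 and Dlx5), against 7.22% of all genes. The limma variance test called 0 of them and 12 of all 14774 genes. Only 2 of 40 had their highest level in replicate 1, against 34.1% of all genes tested, while 19 were highest in replicate 2 (32.8% of all genes) and 19 in replicate 3 (33.1%). The lists were written with earlier results of these data known, so these counts are descriptions and no independent support. The pattern of lowest in replicate 1 and highest in replicate 3 was shown by 12 of 40, against 15.2% of all genes tested and 15.3% of those averaging at least 5 CPM. The median of replicate 3 minus replicate 1 was 0.26 log2 units.

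Of 8 direct pathway genes, Sfxn1 led in CPM at 80.9, 79.99 and 104.6 CPM in replicates 1, 2 and 3, followed by the substance P precursor gene Tac1 at 26.5, 32.8 and 36.8 CPM. Drd1, the D1 receptor gene, was even at 27.0, 22.8 and 27.6 CPM. Slc35d3, the lowest, had 0.476, 2.12 and 3.79 CPM. The transcription factor genes Ebf1 (17.9, 27.2 and 17.9 CPM) and Eya1 (8.02, 16.7 and 9.25 CPM) were highest in replicate 2. The muscarinic receptor gene Chrm4 was the 1 gene of the 8 that was highest in replicate 1, as Isl1 was, with 9.21, 6.69 and 7.51 CPM.

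Of 5 indirect pathway genes, the enkephalin precursor gene Penk was at 142, 223 and 238 CPM, with replicate 1 apart below the others as in Pde10a; 14.3% of its exonic bases are shared with another gene. Sp9, a transcription factor of these cells, stood at 4.92, 5.58 and 5.69 CPM, and Gpr52 at 2.86, 3.79 and 2.61 CPM. Replicate 3 was at least 1.5 times replicate 1 for 2 of the 5, Penk and Gpr6. The share was 15.3% of all genes tested and 7.17% of those averaging at least 5 CPM. Gpr6 rested on 39, 12 and 61 counts and was lowest in replicate 2.

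The 16 signalling and membrane genes of spiny neurons were led by Gnal, the striatal G protein that couples D1 and adenosine receptors to adenylyl cyclase, at 627, 777 and 695 CPM, and by Arpp21 at 286, 398 and 332 CPM. Of the 16, 0 were highest in replicate 1 (34.1% of all genes tested), 10 in replicate 2 (32.8%) and 6 in replicate 3 (33.1%). The pattern of lowest in replicate 1 and highest in replicate 3 was shown by 5, against 15.2% of all genes. Gng7 (67.5, 87.0 and 112 CPM) and the adenylyl cyclase gene Adcy5 (73.9, 86.1 and 96.1 CPM) were lowest in replicate 1 and highest in replicate 3, as were Ppp1r1b and Pde10a. Rasd2 (47.3, 80.9 and 66.6 CPM), Strip2 (27.4, 44.5 and 24.7 CPM) and Actn2 (5.16, 8.81 and 6.64 CPM) were highest in replicate 2, as was Rarb.

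The 12 striatal transcription factors, 11 of which entered the fit, differed among themselves. Bcl11b (75.9, 74.9 and 102 CPM) and Six3 (51.3, 67.6 and 71.8 CPM) led and were highest in replicate 3, and Rxrg had 3.02, 6.36 and 6.40 CPM. Zfp503 (11.2, 17.3 and 9.01 CPM) and Dlx5 (11.8, 18.6 and 4.03 CPM) were highest in replicate 2, and Sp8 was lowest at 0.715, 0 and 0.0791 CPM. Dlx1, at 7.54, 2.45 and 1.03 CPM, was highest in replicate 1, as Isl1 was.

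**Figure D4:**
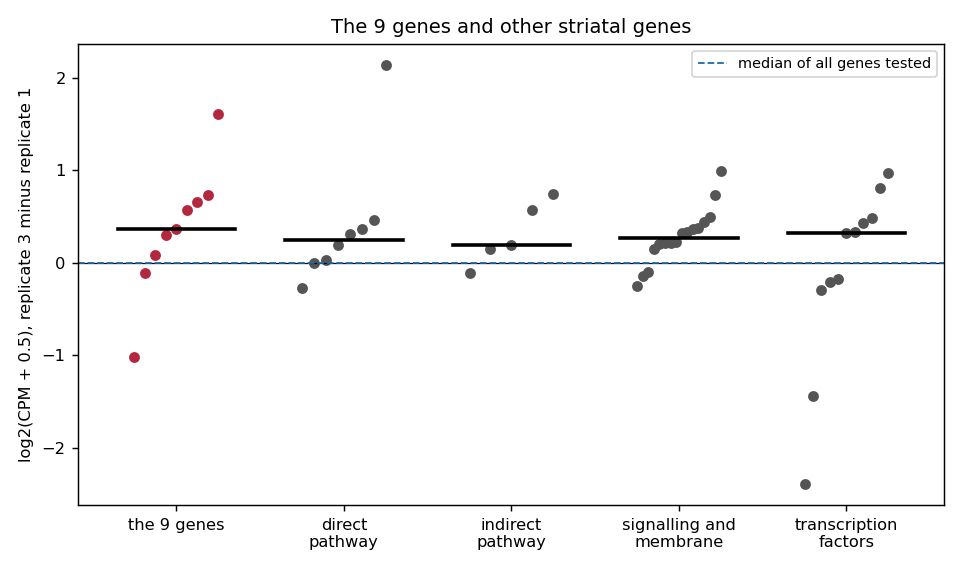
Difference in log2(CPM + 0.5) between replicate 3 and replicate 1 (vertical axis) for the 9 genes (red) and for the genes of 4 lists of other striatal genes that entered the fit (grey), with a bar at each median and a dashed line at the median of all genes tested. The medians lie between 0.19 and 0.37, and Isl1 among the 9 and 2 transcription factors (Dlx1 and Dlx5) lie below -1.

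Genes that act with the 9 proteins were followed on 7 pathway lists. In edgeR 0 of their genes passed an adjusted p of 0.05, against 0.244% of all genes tested. The 18 partners of DARPP-32 were led in CPM by Ppp3ca, a catalytic subunit of calcineurin (1134 ± 81.5 CPM), and Prkacb, a catalytic subunit of protein kinase A (1134 ± 85.9 CPM). Of the 18, 0 had an unadjusted p under 0.05 in edgeR, against 7.22% of all genes tested. The median span of the 18 was 0.20 log2 units, beside 0.51 over all genes tested and 0.38 over genes averaging at least 5 CPM. Ppp1r1b spanned 0.66, but it was chosen by such differences and was far less abundant than the leading partners. Nothing is read from that gap. Among 10 other phosphodiesterases, Pde7b was at 53.9, 61.4 and 93.2 CPM (unadjusted p = 0.0150 and adjusted p = 0.493 in edgeR). It was highest in replicate 3, as Pde10a was, while Pde1a (683, 573 and 483 CPM) was highest in replicate 1. Pde4b, second in level, had 203, 225 and 212 CPM, and Pde11a, the lowest, 2.06, 0.112 and 1.502 CPM. In the R7 complex, Rgs7bp, the membrane anchor of RGS9, stood at 375, 348 and 304 CPM, and Gnb5, its obligatory beta subunit, at 136, 156 and 146 CPM. Rgs7 was at 234, 256 and 291 CPM, and Rgs11, the lowest of that list, at 1.99, 1.23 and 0.158 CPM.

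Of 17 retinoic acid genes, 15 entered the fit and 1 had an unadjusted p under 0.05 in edgeR, against 7.22% of all genes tested. It was Aldh1a1, a retinoic acid synthesizing enzyme, at 15.4, 16.4 and 33.7 CPM (adjusted p = 0.463 in edgeR). Cyp26b1, which degrades retinoic acid, had 2.86, 7.81 and 5.85 CPM, and Aldh1a2 had 7.54, 10.7 and 12.9 CPM. Cyp26b1 was highest in replicate 2 and lowest in replicate 1, as Rarb was, and so was Rara at 39.8, 48.4 and 41.9 CPM with a span of 1.22-fold. The list as a whole did not share this. Of the 15, 4 were highest in replicate 1 (34.1% of all genes tested), 4 in replicate 2 (32.8%) and 7 in replicate 3 (33.1%). Rxra had 40.5, 32.7 and 50.4 CPM, and Cyp26a1, the lowest, 0.318, 0.223 and 0 CPM. Of 10 adenosine genes, 9 entered the fit and 2 had an unadjusted p under 0.05 in edgeR (Adora3 and Nt5e), against 7.22% of all genes tested. Both rested on few counts, Adora3 on 1, 26 and 0 and Nt5e on 3, 42 and 45 in replicates 1, 2 and 3. Adora1 led that list at 178, 163 and 148 CPM, followed by the adenosine kinase gene Adk at 18.8, 26.6 and 23.7 CPM, and Adora2b was lowest at 0.318, 0 and 0 CPM. Among FOXP, MEIS, PBX and LIM-homeodomain relatives, 8 of 15 were highest in replicate 1, against 34.1% of all genes tested, and 1 in replicate 3, against 33.1%. An unadjusted p under 0.05 in edgeR was seen for 3 of the 15 (Meis1, Pknox2 and Isl2), against 7.22% of all genes tested. Ldb2, a cofactor of LIM-homeodomain proteins, had 216, 179 and 163 CPM, while Meis1 (4.53, 14.7 and 8.30 CPM) was highest in replicate 2 and Pknox2 (104, 104 and 66.2 CPM) lowest in replicate 3. Of 11 relatives and substrates of STEP, 10 entered the fit, and 0 of these 10 had a 1.5-fold difference between replicates 1 and 3 in either direction. Of all genes tested, 15.3% were that much higher in replicate 3 and 15.2% in replicate 1. Of those averaging at least 5 CPM, 7.17% and 7.23% were. In that list of 11 the glutamate receptor gene Gria2 was at 569, 511 and 586 CPM, and the STEP relative Ptpn7, which did not enter the fit, was lowest at 0.476, 0.669 and 0.0791 CPM.

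The genes most like the 9 in pattern were found by the root mean square difference, over the 3 libraries, from the mean centred log2 profile of the 9, which was -0.17, -0.02 and 0.19 in replicates 1, 2 and 3. Among 6754 other genes averaging at least 20 CPM, the nearest were Dip2c (0.0016 log2 units), Por (0.0038), Etfdh (0.0042), Spock3 (0.0088) and Rpl37a (0.0097). Of these, Spock3 was also on the list of spiny neuron genes. The 9 genes themselves lay at a median of 0.20 from their mean profile, nearest for Ptpn5 (0.06) and Ppp1r1b (0.12) and farthest for Adora2a (0.63) and Isl1 (0.57). Of the 6754 genes, 52.3% lay nearer to it than that median.

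Markers of other cell types and of the state of the RNA differed between the libraries as well. Astrocyte markers summed to 2352, 2598 and 2844 CPM in replicates 1, 2 and 3, with Slc1a2, the most abundant, at 926, 1062 and 966 CPM. Of the 10, 4 were lowest in replicate 1 and highest in replicate 3, against 15.2% of all genes tested. Oligodendrocyte markers summed to 456, 619 and 630 CPM, led by Mbp (145, 195 and 185 CPM), and precursor markers to 65.8, 87.0 and 95.7 CPM. Microglia markers summed to 32.2, 34.1 and 41.0 CPM with C1qa at 0 counts. The summed levels of these lists were lowest in replicate 1 and highest in replicate 3, as were those of the 9 genes (681, 812 and 842 CPM). Single markers were mixed. Replicate 3 was highest for 6 of 10 astrocyte, 3 of 8 oligodendrocyte and 3 of 6 precursor markers (33.1% of all genes). Replicate 2 was highest for 3, 5 and 3 of them (32.8%). Of the 6 microglia markers that entered the fit, 3 were highest in replicate 3 (33.1% of all genes) and 2 in replicate 2 (32.8%). By mean log2 level, precursor markers were marginally highest in replicate 2 (3.06, 3.516 and 3.507). The part of these cell types in the levels of the 9 genes was not tested.

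Olfactory bulb markers went in the direction of Isl1, with sums of 179, 154 and 70.7 CPM. Cdhr1, the most abundant of them, varied between libraries in edgeR (116, 95.9 and 17.3 CPM, adjusted p = 2.28e-15), with replicate 3 alone low. Immediate early genes were also highest in replicate 1 for 7 of 10, against 34.1% of all genes tested. Egr1 led them at 1293, 1291 and 956 CPM, and Egr2 (29.4, 36.5 and 9.01 CPM, adjusted p = 0.0126) and Nr4a1 (adjusted p = 0.0396) varied in edgeR, Nr4a1 at 122, 70.1 and 53.8 CPM. The median of that list was -0.79 log2 units for replicate 3 minus replicate 1. Of 7 cholinergic markers, 1 was highest in replicate 1 as Isl1 was, against 34.1% of all genes tested. It was Lhx8, at 4.05, 1.23 and 2.61 CPM. Another 3 were highest in replicate 2 and 3 in replicate 3. The mean log2 level of that list was highest in replicate 3 (1.51, 1.58 and 2.09), unlike Isl1. Ache led that list at 28.3, 36.3 and 29.96 CPM, Chat had 0.794, 2.57 and 2.21 CPM, and Slc18a3 was found in replicate 3 alone, at 2.69 CPM. The part of these cell types and of RNA state in the levels of Isl1 or of the other 8 genes was not tested.

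Cortical glutamatergic markers summed to 4492, 4599 and 4753 CPM and GABAergic interneuron markers to 1278, 1260 and 1255 CPM. Replicate 1 was lowest in the first of these sums and highest in the second, but by the mean log2 level of each list the order was the reverse, with replicate 1 highest for glutamatergic markers (7.02, 6.89 and 6.95) and lowest for GABAergic markers (5.25, 5.61 and 5.26). Thalamic markers, of which Gbx2 had 0 counts, summed to 438, 426 and 429 CPM, though Tcf7l2 among them varied in edgeR (7.86, 32.4 and 20.6 CPM, adjusted p = 0.0429). Endothelial markers summed to 9.61, 9.93 and 12.02 CPM, and ependymal and choroid plexus markers, of which Tmem212, Folr1 and Kcne2 had 0 counts, to 4.21, 9.71 and 9.33 CPM. Nuclear-retained RNAs, led by Malat1, summed to 1321, 1606 and 1706 CPM, lowest in replicate 1 as were Ppp1r1b, Pde10a and Ptpn5, though the mean log2 level of that list was lowest in replicate 3 (5.71, 5.94 and 5.59).

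**Figure D5:**
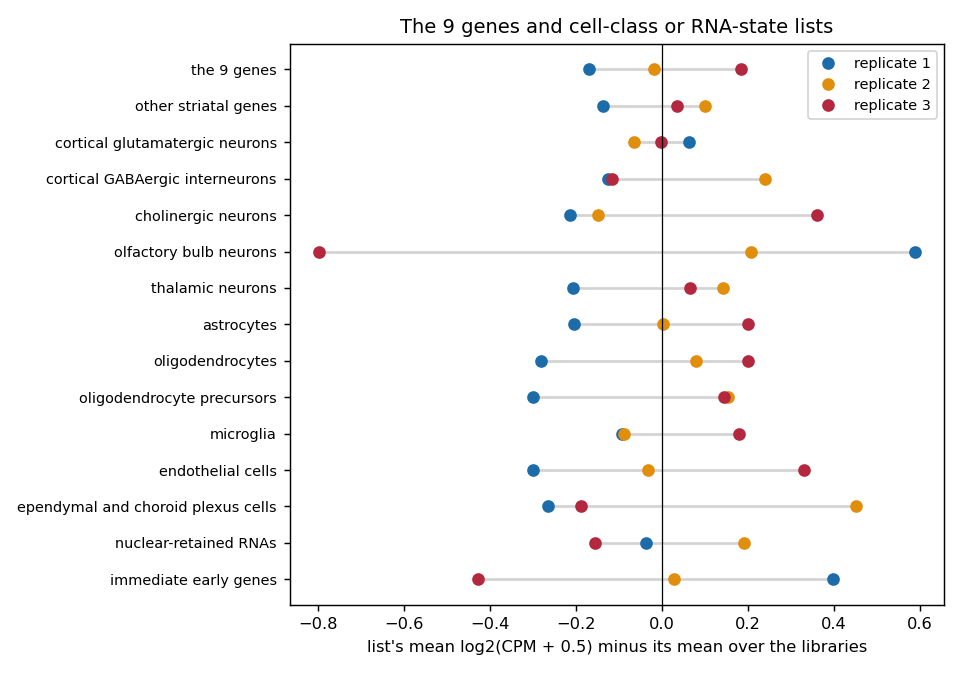
Mean log2(CPM + 0.5) of each list in a library minus its mean over the 3 libraries (horizontal axis), for the 9 genes, other striatal genes and lists of other cell types and RNA state, 1 point per replicate. The 9 genes, cholinergic neurons, astrocytes, oligodendrocytes, microglia and endothelial cells have replicate 1 leftmost and replicate 3 rightmost, and olfactory bulb neurons and immediate early genes have the reverse.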

How the data were processed

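The values deposited for the 3 immunopurified libraries are raw read counts by gene symbol, made by the authors with STAR 2.0.0e and HTSeq on mm10 per the submitters' processing notes. Annotation and strand setting: not given in the sources used here. Lines naming no gene held 27.2% to 28.3% of counts and were left out. From the counts, CPM over named genes, log2(CPM + 0.5) and TPM over merged exons of GENCODE M21 (matched by symbol) were computed; 3 counts equal 0.237 to 0.335 CPM. Totals of 8964137 to 12648577 counts set the precision, shown as 95% exact Poisson intervals.

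Variation between libraries was fitted over every gene reaching 10 counts in some library by edgeR 4.0.16 (TMM, intercept only, trended dispersion, deviance against chi-square with 2 degrees of freedom, Benjamini-Hochberg). The fit was also run on counts simulated at its own trended dispersion, and nothing is read from that run here. Alternatives were limma 3.58.1, DESeq2 1.42.0 size factors, other filters, dispersions, thresholds and pseudocounts, and replicates left out. Scripts ran in Python 3.11.15 (pandas 2.3.3, numpy 2.4.6, scipy 1.17.1, matplotlib 3.10.9) and in R 4.3.3.

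The genes and lists were chosen with earlier results of these data known. The libraries are separate samples per the labels. The edgeR p-values ask whether a gene varied between them more than genes of like abundance. Spread common to genes of like abundance enters the dispersion and is not measured by them. The spread between libraries may be technical. In no pair did counts agree within sampling noise (chi-square 13.1 to 18.3 per degree of freedom). The rule for named genes took the 9 genes, the 2 highest and the lowest of each striatal and pathway list, those called, those averaging at least 5 CPM with a 1.5-fold range, the highest of each cell class list, and the 5 genes nearest in pattern; other names, among them the relatives compared per length, were chosen after values were seen. Some genes that this rule takes are not reported here.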

Additional observations from a re-analysis of the deposited data

How the results depend on the processing

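The median of replicate 3 minus replicate 1 over the 9 genes lay between 0.33 and 0.47 log2 units under 3 other scalings, 2 other pseudocounts, a minimum of 10 counts in every library and each gene left out, the last chosen after seeing the data. That of the other striatal genes lay between 0.21 and 0.29. Neither has a value without replicate 1 or 3. The median span lay between 0.28 and 0.57 with each replicate left out. The count of 4 genes lowest in replicate 1 and highest in replicate 3 held under every scaling, pseudocount and filter tried. Genes varying between libraries numbered 36 in edgeR, 12 in the limma variance test, 17 with at least 10 counts in every library, 1097 with a common dispersion, 18 at an adjusted p of 0.01, and 16 to 21 with a replicate left out. None of these settings called any of the 9 genes. Of the 40 other striatal genes that entered the fit, 2 (Dlx1 and Slc35d3) were called with a common dispersion in edgeR. That setting called 1097 of all 14774 genes tested, so nothing about striatal genes is read from the 2. No paired analysis was possible because all libraries form 1 group. Adora2a, Isl1 and Rarb rest on 34 to 196 counts per library, which limits their precision.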
